A study of Mus musculus with 8 samples.

Results

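Oxidative phosphorylation subunit genes were taken from the RefSeq protein-coding genes of the mouse assembly GRCm38.p6 by symbol. Nuclear genes whose symbol starts with Ndufa, Ndufb, Ndufc, Ndufs, Ndufv, Uqcr, Cox4, Cox5, Cox6, Cox7, Cox8 or Atp5, and Sdha, Sdhb, Sdhc and Sdhd, gave 96 members of 21887 genes. The symbols also bring in 8 complex I assembly factors, Ndufaf1 to Ndufaf8, which are not subunits, and 2 copies of Ndufb4 (Ndufb4b and Ndufb4c). Acetylation of histone H3 at lysine 27 (H3K27ac) and lysine 9 (H3K9ac) was read at these genes from CUT&Tag peak lists; in this assay a transposase guided by an antibody inserts adapters at marked chromatin, and the fragments are sequenced. The cells were small intestinal crypts, dissociated to single cells, of 9-week-old male C57BL/6J mice. There were 4 groups for each mark: Fed -Tetra (fed, no tetracycline), Fast -Tetra (fasted for 24 h, no tetracycline), Fed +Tetra (fed, tetracycline for 21 days) and Fast +Tetra (fasted for 24 h after tetracycline for 21 days). No transgene or deletion was named for any group, and the number of mice was not given. Each of the 8 samples had 2 peak lists, here called list 1 and list 2, and the labels leave out whether they stem from separate mice. A p-value therefore measures only the spread between lists, which may be technical. The number of reads behind a list is not known.

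Oxidative phosphorylation takes place at the inner mitochondrial membrane. Complexes I and II pass electrons from NADH and succinate to ubiquinone, complex III passes them on to cytochrome c, complex IV reduces oxygen, and ATP synthase uses the resulting proton gradient. Most subunits are encoded in the nucleus, and their promoters are known as targets of NRF1, of the ETS factor GABPA and of YY1, with the coactivator PGC-1alpha and the receptor ERRalpha acting on many of them. Both acetylation marks are found at active promoters. Some complex IV subunits exist as isoforms that are known from heart and skeletal muscle, testis or hypoxic cells rather than from epithelium.

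H3K27ac lists held 32392 to 68545 peaks. H3K9ac lists were more uneven, with 17249 in Fed -Tetra list 1 and 99050 and 97764 in Fast -Tetra list 1 and Fast +Tetra list 1. The identity of the material was checked on marker genes. All 10 epithelial markers, Epcam among them, had H3K27ac in all 8 lists, as did 7 of 10 for H3K9ac. Of 8 muscle markers, 6 had no H3K27ac in any list, and Ckm and Des had it in 4 lists each, with 0 to 2 of the 8 present in a list. Of 6 immune markers, 2 to 5 had H3K27ac in a list, with Cd79a in 8 lists. Of 4 germ cell markers, 3 had neither mark in any list, and Prm1 had each mark in 1. Of 5 crypt stem cell markers, 0 to 4 had H3K27ac in a list: Smoc2 had it in 6 lists, Olfm4 in 5, Ascl2 in 3, and Lgr5 and Axin2 in 1 each. Of 3 markers of Paneth cells, 0 to 2 had H3K27ac and 0 to 2 had H3K9ac in a list, and none had either mark in all 8. For H3K9ac, 0 to 4 stem cell markers and 0 to 3 immune markers were present in a list.

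The nuclear oxidative phosphorylation genes carried both marks in most lists. A gene counted as marked in a list if any peak came within 1 kb of one of its ends. H3K27ac marked 80 and 84 of the 96 genes in Fed -Tetra lists 1 and 2, 82 and 85 in Fast -Tetra, 78 and 86 in Fed +Tetra, and 83 and 81 in Fast +Tetra. The 4 groups overlapped, and the mean over the 8 lists was 82.4 ± 2.67 (SD, n = 8 lists). H3K9ac marked 80 and 84 genes in Fed -Tetra, 87 and 82 in Fast -Tetra, 79 and 82 in Fed +Tetra, and 77 and 74 in Fast +Tetra, with a mean of 80.6 ± 4.07 (SD, n = 8 lists). Both Fast +Tetra lists were below the other 6 for H3K9ac. As shares, these were 81.2% to 89.6% of the members for H3K27ac and 77.1% to 90.6% for H3K9ac, against 42.9% to 50.7% and 41.1% to 53.2% of all protein-coding genes in the same lists.

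**Figure D1:**
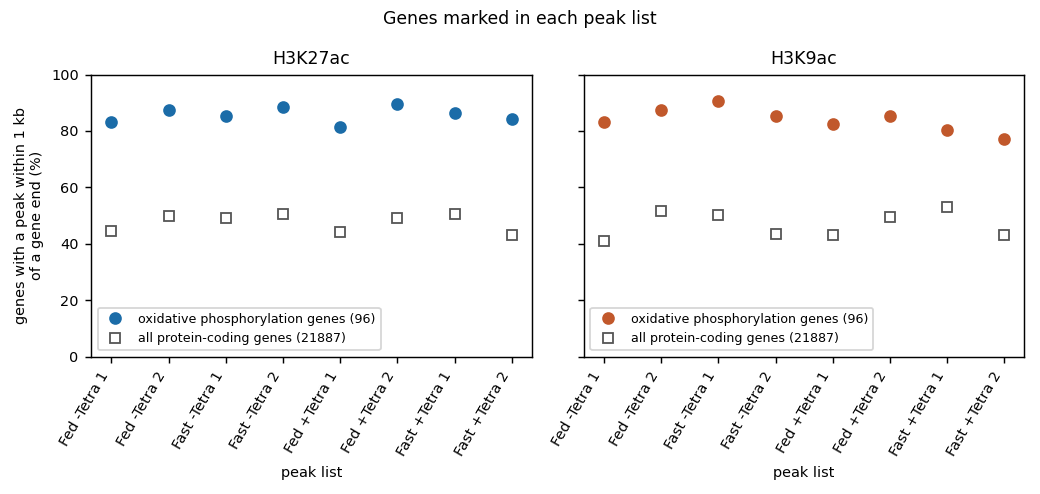
Percentage of genes with a peak within 1 kb of a gene end, on the vertical axis, in each of the 8 peak lists of H3K27ac (left) and H3K9ac (right). Filled circles are the 96 oxidative phosphorylation genes and open squares all 21887 protein-coding genes. The circles lie between 77.1% and 90.6% and the squares between 41.1% and 53.2%, with no overlap in any list.

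H3K27ac was present in all 8 lists at 67 of the 96 members (69.8%), where the share of all genes with this constancy was 33.6%. H3K9ac was present in all 8 lists at 51 members (53.1%), against 21.1% of all genes. Both marks were present in all 16 lists at 45 members (46.9%), against 17.6% of all genes. At the other end, 6 members had no H3K27ac in any list (39.4% of all genes) and 3 had no H3K9ac (25.2% of all genes). Only Cox7b2 and Cox8c lacked both marks in all 16 lists, a state that 22.4% of all genes shared. No p-value is given for these counts, since the members are a chosen list. Without the restricted isoforms and the Ndufb4 copies, 77 of 86 genes had H3K27ac in at least 7 lists and 75 of 86 had H3K9ac in at least 7 lists.

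ATP synthase and complexes II and III were the groups in which every member had H3K27ac in all 8 lists: 17 of 17, 4 of 4 and 8 of 8. For H3K9ac the corresponding counts were 12, 3 and 6. Among the ATP synthase genes, the catalytic F1 subunits Atp5a1 (alpha) and Atp5b (beta) had both marks in all 16 lists. Of the 3 genes that encode the same membrane ring protein, subunit c, Atp5g2 and Atp5g3 had both marks in all 16 lists, and Atp5g1 lacked only H3K9ac in Fed -Tetra list 1. Among the complex II genes, the flavoprotein Sdha and the membrane anchors Sdhc and Sdhd had both marks in all 16 lists, and the iron-sulfur protein Sdhb lacked only H3K9ac in Fast +Tetra list 2. In complex III the Rieske iron-sulfur protein Uqcrfs1 had both marks in all 16 lists. Uqcrc1, a core protein of that complex, lacked only H3K9ac in Fed +Tetra list 1.

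Complex I was less uniform. Of 7 core subunit genes, 6 had H3K27ac in all 8 lists and 3 had H3K9ac in all 8. Ndufv1, the NADH-binding flavoprotein, lacked H3K9ac in Fast +Tetra list 1, and Ndufs1, an iron-sulfur subunit, lacked it in Fast +Tetra list 2. Of 30 accessory subunit genes, 19 had H3K27ac in all 8 lists and 19 had H3K9ac in all 8. Ndufab1, the mitochondrial acyl carrier protein, lacked only H3K27ac in Fast -Tetra list 1. Ndufa1, on chromosome X, had H3K27ac in 3 lists and H3K9ac in 7. Ndufb8 had H3K27ac in 5 lists, and Ndufb7, Ndufc1 and Ndufs4 had it in 6. Among the 8 assembly factors, 4 had H3K27ac in all 8 lists and 2 had H3K9ac. Ndufaf1 was the lowest of these for H3K27ac with 4 lists, and Ndufaf6 was the lowest for H3K9ac, also with 4. The copies Ndufb4b and Ndufb4c had no H3K27ac in any list and H3K9ac in 1 and 2 lists. Their sequence is close to that of Ndufb4, and how reads shared by such copies were placed is not given, so their values are uncertain.

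**Figure D2:**
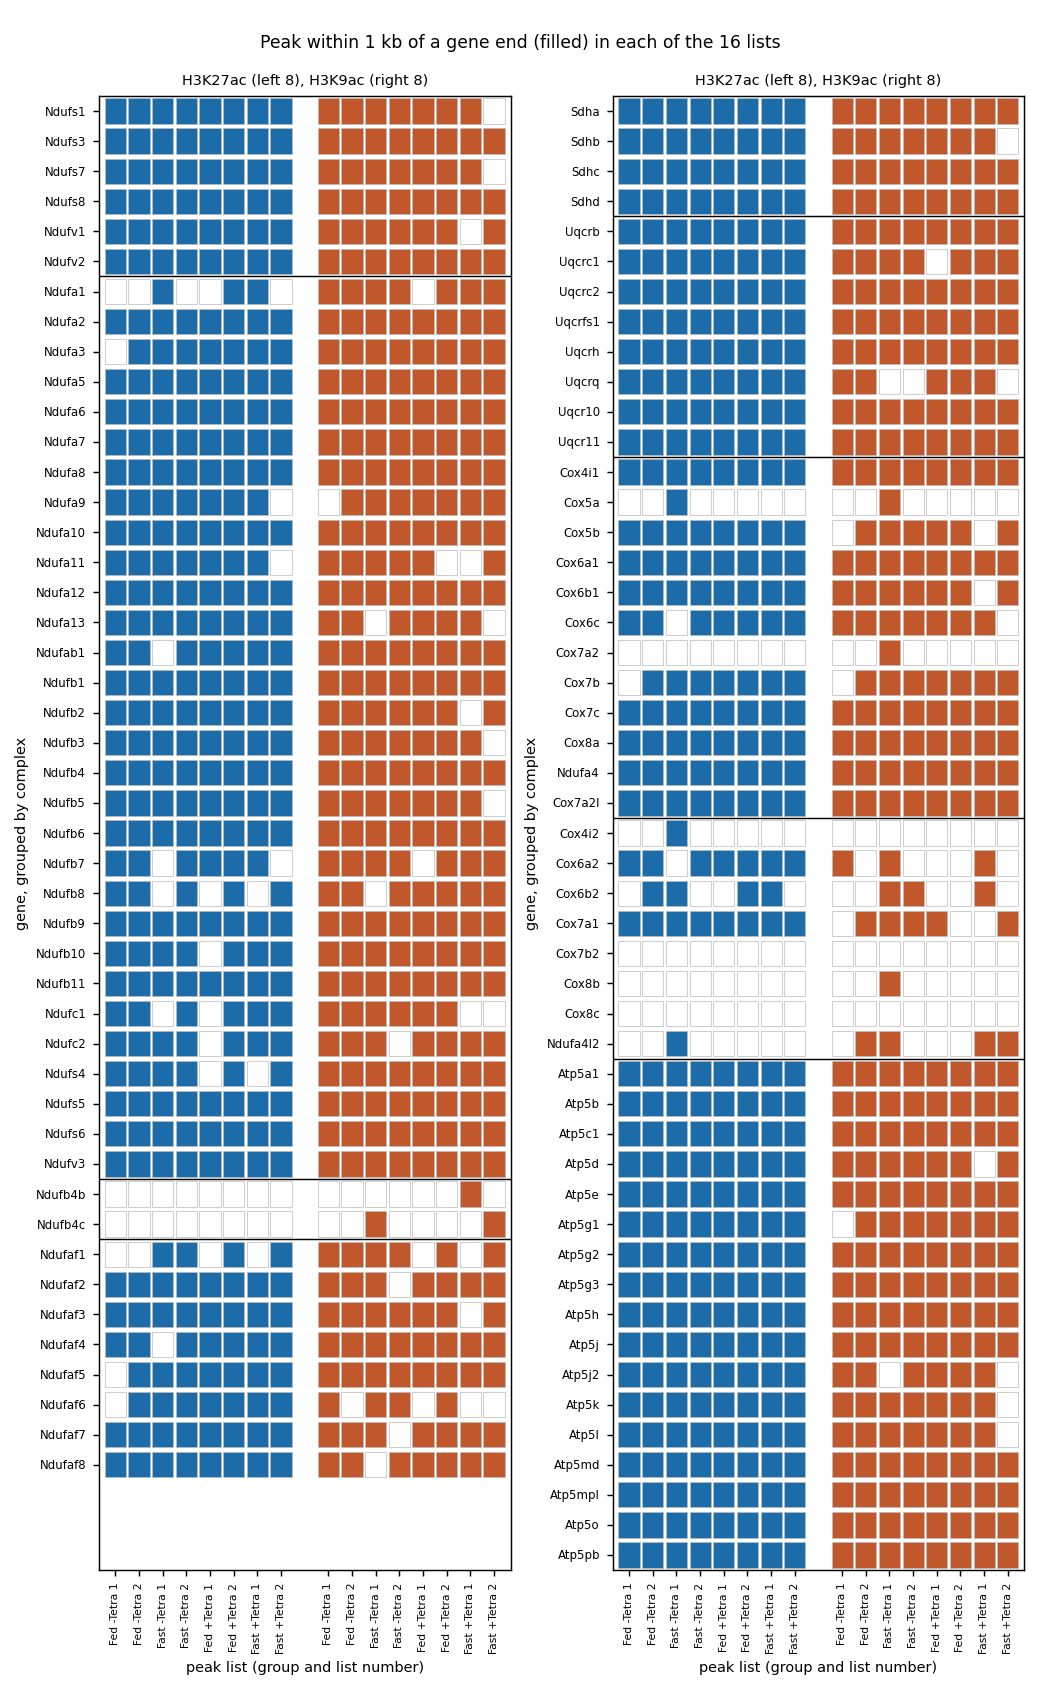
Each row is 1 of 95 of the 96 genes and each column 1 peak list, with the 8 H3K27ac lists in blue and the 8 H3K9ac lists in orange. A filled cell means a peak within 1 kb of a gene end, and black lines part the groups, which on the left are complex I core, complex I accessory, Ndufb4 copies and assembly factors, and on the right complexes II, III and IV, restricted isoforms and ATP synthase. All 17 ATP synthase genes are filled in all H3K27ac columns, and most of the 8 restricted isoforms are open.

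Complex IV held both ends of the range. Among 12 broadly used genes grouped here with complex IV by symbol or function, 8 had H3K27ac in all 8 lists and 6 had H3K9ac in all 8. Cox4i1, Cox6a1 and Cox8a, the broadly expressed forms of subunits 4, 6a and 8, had both marks in all 16 lists. Cox5b had H3K27ac in all 8 and H3K9ac in 6 lists. Cox5a and Cox7a2 were exceptions, with H3K27ac in 1 and 0 lists and H3K9ac in 1 list each.

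For Cox5a and Cox7a2 the low counts stood beside a RefSeq gene span that ends far from the start. The span of Cox5a is chr9:57517328-57532427, and the start given for it in a RefSeq promoter table for GRCm38.p6 lies 3904 bp inside that span. Within 1 kb of this start H3K27ac was present in 8 of 8 lists and H3K9ac in 7. The highest-scoring H3K27ac peak within the span was at the same place in all 8 lists, at chr9:57520871-57522254 by its median limits. For Cox7a2, spanning chr9:79755241-79771422, the start lies 11569 bp inside, and both marks were present there in 8 of 8 lists, with the highest-scoring H3K27ac peak at chr9:79759258-79760336. With these starts in place of the gene ends, 58 of the 78 members that had one carried H3K27ac in all 8 lists (74.4%, against 34.5% of 17492 genes), and 42 carried H3K9ac in all 8 (53.8%, against 21.5%). Members without H3K27ac at the start in any list then numbered 3 (40.8% of all genes), and without H3K9ac 1 (30.0%).

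The 8 isoforms known from other tissues were mostly unmarked. Cox8c and Cox7b2, testis forms of subunits 8 and 7b, had neither mark in any list. Cox8b, the heart and skeletal muscle form of subunit 8 in mice, had no H3K27ac and a single H3K9ac peak of 304 bp. Cox4i2, known from lung and hypoxic cells, had H3K27ac in 1 list and no H3K9ac. Ndufa4l2, a gene induced by hypoxia, had H3K27ac in 1 list and H3K9ac in 4. Cox6b2, another testis form, had H3K27ac in 4 lists and H3K9ac in 3.

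Cox7a1 and Cox6a2, both known from striated muscle, did carry H3K27ac. Cox7a1 had it in all 8 lists, with a summed peak length of 3167 and 4029 bp in Fed -Tetra, 3979 and 3403 bp in Fast -Tetra, 3310 and 4590 bp in Fed +Tetra and 3241 and 4149 bp in Fast +Tetra. These values overlapped in all 4 groups. H3K9ac at Cox7a1 was present in 5 lists with lengths of 549 to 1669 bp. Cox6a2 had H3K27ac in 7 lists, with lengths of 442 to 1008 bp, and H3K9ac in 3. An end of another gene lay 904 bp from Cox7a1 (Capns1), 69 bp from Cox6a2 (Itgad), 132 bp from Cox6b2 (Fam71e2) and 31 bp from Ndufa4l2 (Shmt2), so a peak there cannot be given to either gene alone. Whether muscle cells contributed to these peaks was not tested. Of the 8 muscle markers, 0 to 2 had H3K27ac and 0 to 3 had H3K9ac in a list: Ckm and Des had H3K27ac in 4 lists each, Myh6 had H3K9ac in 3, and Myh7, Tnnt2, Myh6, Actn2, Myh11 and Actg2 had H3K27ac in none.

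The upstream sequences of 3 pairs of related isoforms, a broadly expressed form beside a form known from other tissues, are shown for their CpG dinucleotides, a base step that is dense in many broadly active promoters. Both subunit 7a forms had H3K27ac at their starts in all 8 lists, and in the other pairs the form known from other tissues had none. Each sequence below is the 250 bases before the RefSeq start on GRCm38.p6, written 5′ to 3′ on the gene's strand, with each CpG in capitals. The pairs are subunit 8 (Cox8a and Cox8b), subunit 7a (Cox7a2 and Cox7a1) and subunit 7b (Cox7b and Cox7b2).
Cox8a: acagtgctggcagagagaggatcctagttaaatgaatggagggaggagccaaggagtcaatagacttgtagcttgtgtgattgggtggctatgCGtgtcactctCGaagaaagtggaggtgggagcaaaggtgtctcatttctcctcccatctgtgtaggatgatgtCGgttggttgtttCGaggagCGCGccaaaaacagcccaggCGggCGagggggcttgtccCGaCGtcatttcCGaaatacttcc
Cox8b: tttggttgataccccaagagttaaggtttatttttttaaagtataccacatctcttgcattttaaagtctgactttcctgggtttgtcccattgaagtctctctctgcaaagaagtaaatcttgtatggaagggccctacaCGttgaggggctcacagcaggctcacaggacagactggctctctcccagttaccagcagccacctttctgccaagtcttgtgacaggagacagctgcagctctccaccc
Cox7a2: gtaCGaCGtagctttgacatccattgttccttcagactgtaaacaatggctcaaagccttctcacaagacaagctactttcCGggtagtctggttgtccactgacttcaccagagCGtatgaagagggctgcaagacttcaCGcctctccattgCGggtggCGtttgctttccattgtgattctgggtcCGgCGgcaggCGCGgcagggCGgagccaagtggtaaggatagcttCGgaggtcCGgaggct
Cox7a1: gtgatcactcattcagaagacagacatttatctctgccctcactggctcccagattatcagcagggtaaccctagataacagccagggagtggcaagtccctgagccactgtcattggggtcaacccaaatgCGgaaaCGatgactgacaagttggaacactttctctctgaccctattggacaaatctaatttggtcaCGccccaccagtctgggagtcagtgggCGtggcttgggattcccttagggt
Cox7b: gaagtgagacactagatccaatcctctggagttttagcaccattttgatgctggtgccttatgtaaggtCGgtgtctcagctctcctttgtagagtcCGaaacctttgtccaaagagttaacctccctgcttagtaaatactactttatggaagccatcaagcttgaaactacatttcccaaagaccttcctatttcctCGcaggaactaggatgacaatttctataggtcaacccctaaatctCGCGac
Cox7b2: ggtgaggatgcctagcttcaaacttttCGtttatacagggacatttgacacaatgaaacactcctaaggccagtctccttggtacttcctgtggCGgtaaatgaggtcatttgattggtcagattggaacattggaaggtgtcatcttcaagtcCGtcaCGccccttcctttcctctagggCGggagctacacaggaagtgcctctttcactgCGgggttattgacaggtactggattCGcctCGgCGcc

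The window of Cox8a (chr19:7217617-7217866, minus strand) holds 11 CpG and that of Cox8b (chr7:140900447-140900696, minus strand) holds 1. Cox7a2 (chr9:79759854-79760103, minus strand) has 14 and Cox7a1 (chr7:30183921-30184170, plus strand) has 4. In the subunit 7b pair the broadly expressed form has the fewer: Cox7b (chrX:106015450-106015699, plus strand), with each mark in 7 lists, has 5, and Cox7b2, with neither mark in any list, (chr5:71548206-71548455, minus strand) has 9. Over the 300 bases from 250 before to 50 after the start, the 78 members with a sequence had a median of 20 CpG (range 2 to 43). The median was 15 over all 17492 promoters and 24 over the 3163 promoters of genes with both marks in all 16 lists. The 5 restricted isoforms and Ndufb4 copies with a sequence had a median of 7 (range 2 to 10), and genes with neither mark in any list had a median of 3.

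Motifs known from this pathway were searched as exact letters on both strands of the same 300 bases. The short NRF1 form GCATGCGC was present in 12 of 78 members (15.4%), against 3.94% of all promoters and 6.83% of those with both marks in all 16 lists. The 12 were Atp5g2, Atp5k, Atp5l, Cox6a1, Ndufa11, Ndufa6, Ndufa8, Ndufaf4, Ndufaf5, Sdhb, Uqcr11 and Uqcrc1. The long NRF1 form, which is the short one with the letters GC before it, was present in 7 (8.97%, against 1.47% of all and 2.91% of those with both marks). The YY1 motif AAGATGGC was present in 11 (14.1%, against 3.57% and 6.64%). Only 37 of the 78 members had both marks in all 16 lists themselves. Among these 37, the short NRF1 form was present in 5 (13.5%), the long form in 2 (5.41%) and the YY1 motif in 3 (8.11%). The ETS motif CCGGAAG was present in 19 (24.4%, against 12.9% and 24.5%), and in 12 of the 37 constantly marked members (32.4%). The SP/KLF motif GGGCGG was present in 35 (44.9%, against 49.2% and 70.7%), and in 19 of those 37 members (51.4%). Both member shares were below that of all constantly marked promoters. The ERRalpha motif TCAAGGTCA was present only at Atp5g3 and Sdhd (2.56%, against 0.377% and 0.285%). The TATA box TATAAA was present in 10.3% of members (14.8% and 7.4%), and CCAAT in 43.6% (42.3% and 42.7%). None of the 5 restricted isoforms and copies held the NRF1, ETS, YY1 or ERRalpha letters. Matches describe the letters of this window and are not binding sites measured here.

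To show these motifs in place, the 250 bases upstream of Cox6a1 (chr5:115348959-115349208, minus strand), Atp5k, a small membrane subunit of ATP synthase (chr5:108434400-108434649, minus strand), and Uqcrh, the complex III hinge protein (chr4:116075071-116075320, minus strand), are given with NRF1 and ETS matches in capitals. They were chosen after their matches were seen. In these 250 bases Cox6a1 holds both motifs, Atp5k the long NRF1 form, and Uqcrh the ETS motif near its start. The ETS match of Atp5k in the 300 bases is not wholly inside the printed stretch. On the printed strand the ETS motif reads CTTCCGG.
Cox6a1: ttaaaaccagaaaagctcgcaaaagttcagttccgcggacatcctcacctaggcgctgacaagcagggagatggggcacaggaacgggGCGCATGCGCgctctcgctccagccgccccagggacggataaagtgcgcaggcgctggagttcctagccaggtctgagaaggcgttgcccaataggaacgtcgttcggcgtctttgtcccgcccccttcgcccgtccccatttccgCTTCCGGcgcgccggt
Atp5k: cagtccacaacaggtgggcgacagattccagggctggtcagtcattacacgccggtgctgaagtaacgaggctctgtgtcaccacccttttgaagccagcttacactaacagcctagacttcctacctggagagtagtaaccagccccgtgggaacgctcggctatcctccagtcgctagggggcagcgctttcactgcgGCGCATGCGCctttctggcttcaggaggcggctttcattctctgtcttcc
Uqcrh: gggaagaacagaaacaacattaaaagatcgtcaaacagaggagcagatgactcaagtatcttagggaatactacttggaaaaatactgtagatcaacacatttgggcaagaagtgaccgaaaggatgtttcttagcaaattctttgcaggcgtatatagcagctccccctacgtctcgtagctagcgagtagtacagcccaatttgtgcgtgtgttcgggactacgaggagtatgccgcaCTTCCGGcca

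The peaks sat on the starts of the members. Averaged over the 8 lists, an H3K27ac peak covered the start itself in 90.4% of member and list pairs, against 44.2% for all 17492 genes. H3K9ac coverage of members was highest 100 bp after the start, at 87.3%, against 40.1% at the start for all genes. For both marks the members' coverage was above 0.5 of its maximum from 500 bp before to 800 bp after the start. Among 57 members with a known strand and a span over 4 kb, H3K27ac was within 1 kb of the 5′ end in 89.0% of gene and list pairs and of the 3′ end in 15.4%. H3K9ac gave 88.2% and 11.2%. Over all genes of that length the 5′ shares were 51.5% and 49.1%, and the 3′ shares 9.63% and 9.70%. An end of another protein-coding gene lay within 1 kb of 54 of the 96 members (56.2%), against 24.8% of all genes. Among members with such a neighbour, 42 of 54 had H3K27ac in all 8 lists (77.8%, against 55.5% of all genes with a neighbour), and among those without one, 25 of 42 (59.5%, against 26.4% of all genes without a neighbour). For H3K9ac these counts were 33 of 54 (61.1%, against 37.9%) and 18 of 42 (42.9%, against 15.6%). The members' share thus stood above the background in both classes.

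**Figure D3:**
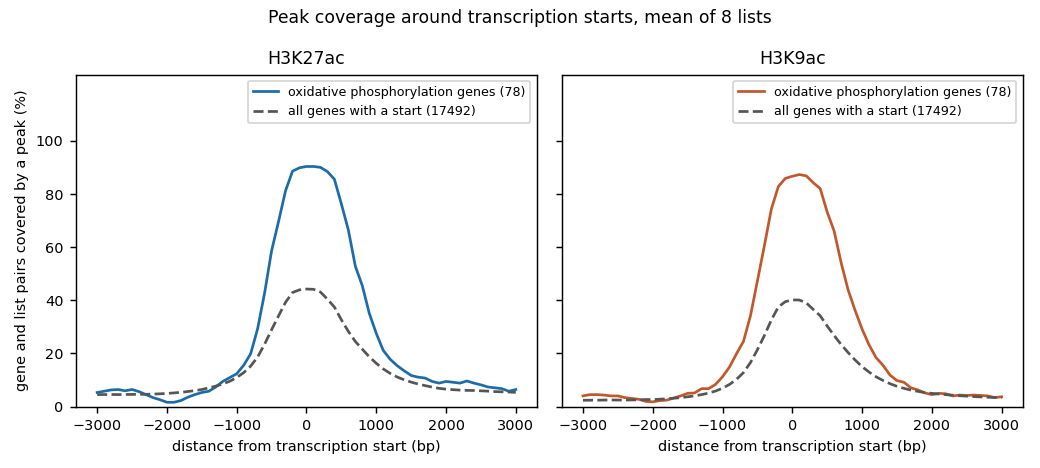
Percentage of gene and list pairs covered by a peak, on the vertical axis, by distance from the transcription start in bp (negative is upstream), as the mean of 8 lists for H3K27ac (left) and H3K9ac (right). The solid line is the 78 oxidative phosphorylation genes with a start and the dashed line all 17492 genes. The members' line reaches 90.4% and 87.3%, and the line of all genes 44.2% and 40.1%.

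The authors' score, which has no stated unit, was used only for ranks within a list. For the percentiles here, the best gene-end peak of each gene was ranked among those of all genes marked in that list. At members with H3K9ac in all 8 lists the best gene-end peak stood at a median percentile of 71.2 to 84.6 among marked genes. The mean over the lists was 77.6 ± 4.96 (SD, n = 8 lists). Over all genes with H3K9ac in all 8 lists that median was 62.8 to 71.2, with a mean of 67.5 ± 2.79. The members were above all constantly marked genes in each of the 8 lists. H3K27ac did not show this: the members' median percentile was 53.8 to 64.1 (mean 60.5 ± 3.44), against 59.3 to 64.9 (mean 62.6 ± 2.45), and members were higher only in Fast +Tetra list 2.

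**Figure D4:**
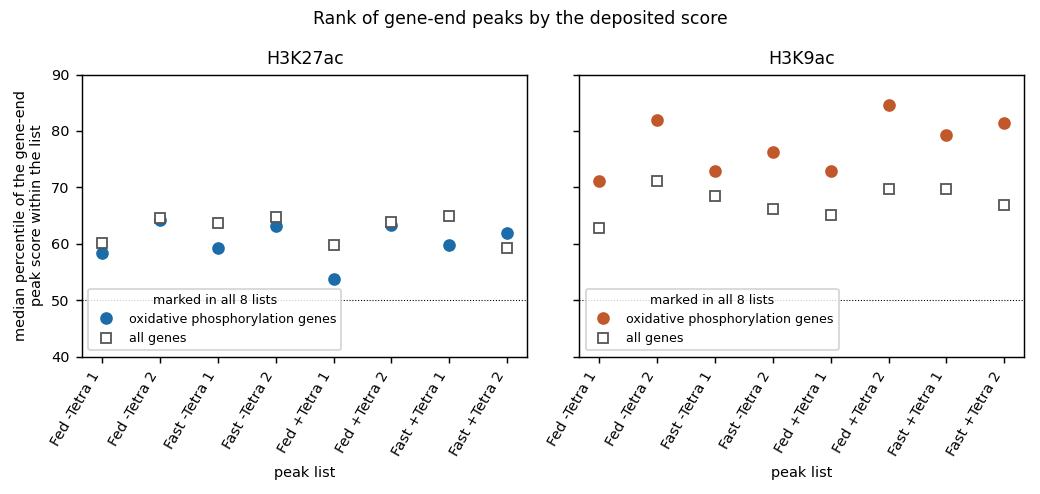
Median percentile of the score of the best gene-end peak (vertical axis, which starts at 40) for genes marked in all 8 lists, by peak list, for H3K27ac (left) and H3K9ac (right). The percentile is taken among all genes marked in the same list. Filled circles are oxidative phosphorylation genes and open squares all genes. For H3K9ac every circle lies above its square, with means of 77.6 and 67.5, and for H3K27ac they lie close together, with means of 60.5 and 62.6.

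Breadth, the summed length of the peaks with a base within 1 kb of either end of a gene, varied widely among constantly marked members. For H3K27ac the median over the 8 lists was 5994 bp at Atp5b, 5678 bp at Atp5d (the delta subunit of F1) and 4612 bp at the accessory complex I gene Ndufa6, and 819 bp at Ndufa7, 829 bp at Ndufs3 and 874 bp at Ndufaf7. For H3K9ac it was 4495 bp at Atp5b, 3708 bp at Ndufb10 and 3152 bp at Uqcrh, and 752 bp at Sdhc, 853 bp at Ndufs4 and 934.5 bp at Ndufaf4. Atp5b was the widest member for both marks. An end of Baz2a lay 982 bp from Atp5b, of Midn 177 bp from Atp5d and of Rps2 133 bp from Ndufb10, and breadth there includes peaks shared with these genes. Narrow members also had near neighbours, such as Rps28 at 10 bp from Ndufa7. Over the list medians, constantly marked members averaged 1532 ± 189 bp for H3K27ac (SD, n = 8 lists) and 1462 ± 155 bp for H3K9ac, against 1758 ± 212 bp and 1547 ± 191 bp for all constantly marked genes. List 1 gave narrower members than list 2 in each of the 8 groups, for example 1305 against 1631 bp for H3K27ac in Fed -Tetra.

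Whether fasting changed acetylation at these genes, and whether tetracycline, an antibiotic that reduces intestinal bacteria, altered that, was the comparison of the design. The number of members marked moved by about the spread between the lists of a group or less, apart from H3K9ac with tetracycline. For H3K27ac, Fast minus Fed was 1.5 members without tetracycline (means 83.5 and 82.0) and 0.0 with it (82.0 and 82.0), where lists 1 and 2 of a group had a pooled SD of 3.41. For H3K9ac it was 2.5 members without tetracycline (84.5 and 82.0) and -5.0 with it (75.5 and 80.5), with a pooled SD of 2.72. In percentage points the H3K9ac difference with tetracycline was -5.21 for the members and 1.89 for all genes. With a window of 2.5 kb in place of 1 kb, the H3K9ac difference with tetracycline was 1.5 members (82.0 and 80.5), the opposite direction. No test was made of these counts. Of the 24 members with H3K9ac in 7 lists, 8 lacked it only in Fast +Tetra list 2, against 27.5% of all genes with H3K9ac in 7 lists. These were Ndufs1, Ndufs7, Ndufb3, Ndufb5, Sdhb, Cox6c, Atp5k and Atp5l. Another 5 of the 24 lacked H3K9ac only in Fast +Tetra list 1, against 8.73% of all genes with H3K9ac in 7 lists. Without Fast +Tetra list 2 the H3K9ac difference with tetracycline was -3.5 members, and 59 members had H3K9ac in all of the 7 remaining lists.

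The size of the H3K9ac difference also depended on how many peaks of each list were used. When every H3K9ac list was reduced to its 17249 highest-scoring peaks, the number in the shortest list, members marked were 80 and 82 in Fed -Tetra, 60 and 75 in Fast -Tetra, 76 and 79 in Fed +Tetra, and 54 and 66 in Fast +Tetra. All 4 Fast lists were then below all 4 Fed lists, and Fast minus Fed was -16.1 percentage points on average for the members. All genes moved in the same direction, by -11.0 percentage points, and their share in each of the 4 Fast lists was below that of every Fed list, at 22.6% to 35.4% against 37.6% to 41.1%. Both Fast lists with the lowest counts were those with the most deposited peaks. With all deposited peaks the averages were -1.30 percentage points for members and 1.13 for all genes. For H3K27ac reduced to 32392 peaks a list, the averages were -4.95 and -2.37 percentage points.

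Few members switched between feeding states. H3K27ac without tetracycline was present in both Fast but no Fed lists at 1 member, the assembly factor Ndufaf1 (1.29% of all genes did this), and the reverse occurred at none (0.503%). With tetracycline neither pattern occurred (0.768% and 0.457%). For H3K9ac without tetracycline, 2 members, of which Cox6b2 is described here, were marked in both Fast but no Fed lists (1.23% of all genes), and Uqcrq, a small subunit of complex III, in both Fed lists and neither Fast list (1.48%). With tetracycline, Ndufa4l2 was marked in both Fast but no Fed lists (1.93%), and Ndufc1, a small accessory subunit of complex I, in both Fed lists and neither Fast list (1.23%). Between tetracycline states, H3K9ac was present in both Fast -Tetra lists and neither Fast +Tetra list at Ndufc1 and Ndufaf6 (1.36% of all genes). No member showed another H3K9ac switch between tetracycline states (2.15% for the reverse in Fast, 0.731% and 0.818% for gain and loss in Fed), and none showed one for H3K27ac (0.48% and 1.12% in Fast, 0.37% and 0.74% in Fed). No member was marked in all 4 Fast lists and no Fed list for either mark (0.0959% of all genes for H3K27ac and 0.0777% for H3K9ac), nor the reverse (0.0137% and 0.0411%). The members' shares, 0% to 2.08%, stood near these backgrounds.

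Breadth was then compared between groups with limma on log2(breadth + 200 bp), over genes marked in at least 4 of the 8 lists, which kept 85 of 96 members for each mark. No member passed an adjusted p of 0.05 (Benjamini-Hochberg over all tested genes) in any of the 7 contrasts of either mark. The percentage of all tested genes called was 0.0 in each contrast of H3K27ac (10779 genes). For H3K9ac (10574 genes) it was 0.0757, or 8 genes, for Fast minus Fed with tetracycline and for tetracycline in Fast, and 0.0 in the other 5. At an unadjusted p under 0.05, Fast minus Fed averaged over both tetracycline states gave 0 members for H3K27ac, where 6.22% of all genes did, and 5 for H3K9ac (3 higher and 2 lower), where 6.2% of all genes did. The median difference of the members was -0.04 for H3K27ac and 0.04 for H3K9ac on the log2 scale, with a median standard error of 0.20 and 0.34, and that of all genes was -0.04 and -0.02. Within tetracycline states the members' H3K9ac medians had opposite signs. They were 0.147 without tetracycline and -0.098 with it, against 0.0135 and 0.0051 for all genes. For the fasting effect with minus without tetracycline the median was -0.210, against -0.012. For tetracycline in Fast it was -0.157, against -0.0075. The members' median standard error was 0.477, and 0.675 for the difference of fasting effects. These medians were not tested. In the 6 contrasts other than averaged fasting, 1 to 4 members for H3K27ac and 0 to 3 for H3K9ac had an unadjusted p under 0.05, where 2.76% to 5.05% and 2.29% to 5.66% of all tested genes did. The 4 belonged to the H3K27ac fasting effect with minus without tetracycline, where 2.76% of all tested genes did. The 3 occurred in H3K9ac fasting without tetracycline (4.72% of all tested genes) and with it (4.84%). Centring each list on its median removed a Fast minus Fed difference of 0.14 for H3K27ac and -0.04 for H3K9ac that all tested genes shared. A change of the size of these errors or smaller was not detectable. Much larger differences also went uncalled, such as -2.42 for H3K9ac at Uqcrq (SE 0.80, limma adjusted p = 0.717). The lack of calls therefore does not show that breadth was unchanged.

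**Figure D5:**
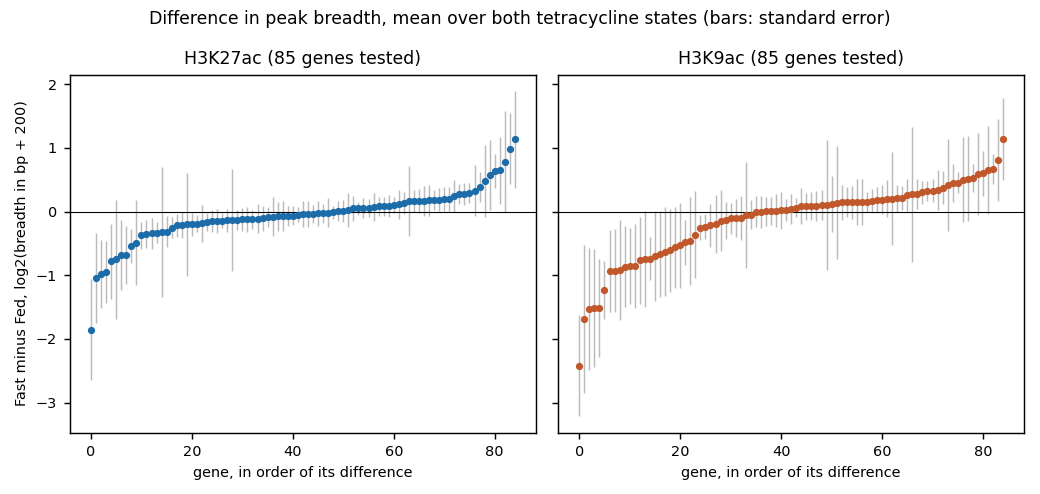
Fast minus Fed difference in log2(breadth in bp + 200), averaged over both tetracycline states (vertical axis), for the 85 tested members of each mark in order of their difference, with bars of 1 standard error. H3K27ac values run from -1.86 to 1.14 and H3K9ac values from -2.42 to 1.14, and none passed an adjusted p of 0.05.

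The members with the smallest p for fasting are described by their values. Uqcrq had H3K9ac breadths of 1456 and 1596 bp in Fed -Tetra, 0 and 0 in Fast -Tetra, 1559 and 2542 bp in Fed +Tetra, and 1776 and 0 bp in Fast +Tetra. The Fast lists overlapped the Fed lists only through Fast +Tetra list 1, and the averaged difference was -2.42 (SE 0.80, limma adjusted p = 0.717). H3K27ac at Uqcrq was broad in all 8 lists, from 2516 to 6001 bp, and an end of Gdf9 lies 57 bp away. Atp5pb, the peripheral stalk subunit b of ATP synthase, had H3K9ac breadths of 1417 and 1511 bp in Fed -Tetra and 2000 and 2207 bp in Fast -Tetra, and of 1450 and 1776 bp in Fed +Tetra and 2028 and 2222 bp in Fast +Tetra. All 4 Fast lists were above all 4 Fed lists, and the averaged difference was 0.46 (SE 0.16, limma adjusted p = 0.726). The share of all tested genes whose lists separate in this way is not given, so the separation is only a description. Cox4i1, the broadly expressed form of complex IV subunit 4, had H3K9ac breadths of 1186 and 1349 bp in Fed -Tetra, 2226 and 1357 bp in Fast -Tetra, 1157 and 1425 bp in Fed +Tetra, and 2685 and 2262 bp in Fast +Tetra. Its averaged difference was 0.66 for H3K9ac (SE 0.24, limma adjusted p = 0.737) and -0.33 for H3K27ac (SE 0.16, limma adjusted p = 0.809), so the marks had opposite signs there. With equal numbers of top-scoring peaks the H3K9ac difference of Cox4i1 was -0.03.

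For H3K27ac the smallest p values in the averaged fasting contrast were those of Uqcr11, Ndufb7 and Ndufs3. Uqcr11, a small subunit of complex III, had 1515 and 934 bp in Fed -Tetra, 1907 and 2887 bp in Fast -Tetra, 717 and 1753 bp in Fed +Tetra, and 1975 and 1918 bp in Fast +Tetra. All 4 Fast lists were above all 4 Fed lists, with a difference of 0.63 (SE 0.27, limma adjusted p = 0.806). The lengths in bp are before centring, which removed a Fast minus Fed difference of 0.14 shared by all tested genes. The share of all genes that separate in this way is not given here either. Ndufb7, an accessory subunit, was without a peak in Fast -Tetra list 1 and Fast +Tetra list 2, and its difference was -1.86 (SE 0.79, limma adjusted p = 0.809). Ndufs3, a core subunit, had -0.54 (SE 0.26, limma adjusted p = 0.809). Within tetracycline, Ndufb6 had a fasting difference of 0.75 (-0.044 with a window of 2.5 kb) and Ndufa12 of -0.93, and without it Ndufa4, a small protein of complex IV, had 0.51, and the adjusted p was 0.971 and 0.971 with tetracycline and 0.914 without it (limma).

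Ndufc1 had the smallest p of the members for H3K9ac with tetracycline. Its H3K9ac breadths were 875 and 1306 bp in Fed -Tetra, 793 and 1379 bp in Fast -Tetra, 927 and 982 bp in Fed +Tetra, and 0 and 0 bp in Fast +Tetra. The peak was thus missing only in the Fast +Tetra group. The fasting difference with tetracycline was -2.54 (SE 0.64, limma adjusted p = 0.660). The difference between the fasting effects with and without tetracycline was -2.61 (SE 0.91, limma adjusted p = 0.945). Tetracycline in Fast gave Ndufc1 a limma adjusted p of 0.425, the smallest of any member in any contrast. H3K27ac at Ndufc1 was present in both Fast +Tetra lists, at 926 and 1574 bp, and absent in Fast -Tetra list 1 and Fed +Tetra list 1. Averaged over feeding, tetracycline gave Atp5pb an H3K27ac difference of 0.31 (SE 0.13, limma adjusted p = 0.952). The other members with the 5 smallest p in these contrasts were, for H3K27ac, Ndufaf1, Ndufaf3, Ndufaf4, Ndufa11, Ndufs1, Ndufs6, Cox6c, Cox7b and Uqcrb, with limma adjusted p values from 0.809 upward. For H3K9ac they were Ndufv3, Ndufs1, Ndufs8, Ndufa10, Ndufa11, Ndufa4l2, Ndufaf1, Ndufaf5, Ndufb5, Ndufb6, Ndufb9, Atp5g1 and Atp5k, from 0.791 upward.

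These breadth results rested on single lists in several genes. With Fast +Tetra list 1 left out, so that list 2 alone stood for the group and was assumed to vary like the other groups, limma called 6 members lower in Fast than Fed with tetracycline for H3K9ac: Ndufs1, Ndufb3, Ndufb5, Sdhb, Atp5k and Ndufs7, among 470 genes (4.44%). The differences were -3.08 to -3.80, and each of these genes had no H3K9ac peak in that list and one in all 7 others. Sdhb had H3K9ac breadths of 1614 and 3579 bp in Fed -Tetra, 566 and 1781 bp in Fast -Tetra, 1798 and 3273 bp in Fed +Tetra, and 1910 and 0 bp in Fast +Tetra. For H3K27ac the same omission called Ndufa11, a membrane-arm subunit of complex I, at -3.70 (limma adjusted p = 0.0087), 1 of 468 genes (4.34%). Ndufa11 had 1919 and 0 bp in the Fast +Tetra lists and 1685 to 2497 bp in the other 6. With H3K9ac Fast -Tetra list 2 left out, Ndufaf8 was called for tetracycline in Fast at 3.50 (limma adjusted p = 0.0454), 1 of 75 genes (0.709%), with 0 bp in Fast -Tetra list 1. No other omission of a single list called a member.

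Genes around the pathway were counted from lists chosen by function. Of cytochrome c1 (Cyc1), cytochrome c (Cycs) and its testis form (Cyct), the first 2 had H3K27ac in all 8 lists and Cyct had neither mark in any. Of 42 assembly factors of complexes I to V outside the symbol rule, 31 had H3K27ac in all 8 lists and 19 had H3K9ac. Of 14 genes of the tricarboxylic acid cycle, which supplies NADH and succinate, 11 and 7 did, and Idh2 had no H3K27ac in any list. Of 16 transcriptional regulators, 12 and 7 did. Ppargc1a, which encodes PGC-1alpha, had H3K27ac in 1 list and H3K9ac in 4, and Gabpb1 had H3K27ac in no list, both at the ends of their RefSeq spans.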

How the data were processed

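CUT&Tag libraries for H3K27ac and H3K9ac were made with the Epicypher CUTANA kit, per the labels' protocols. Per the submitters' processing notes, FastQC, Bowtie, SAMtools and mm10 (GRCm38) were used, with no versions given. The authors deposited 16 peak lists, 2 per sample, with other values (chromosome, start and end of each peak, 0-based starts), a MACS peak name and a score of unstated unit, at least 50 for every peak. The names of the lists call the data downsampled. The sample titles name mouse IgG for H3K27ac and rabbit IgG for H3K9ac, so the IgG named differs with the mark. How IgG was used and the peak cutoff are not given in the sources used here. The depth is unknown, so no interval that needs it is given. List numbers 1 and 2 come only from the names of the deposited lists.

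Gene spans came from a RefSeq table and starts and sequences from a RefSeq promoter table, both GRCm38.p6; 78 of 96 members matched the latter. Members without an entry included Ndufs1, Sdhc, Cox4i2, Ndufaf6, Uqcrc2, Cox6a2, Cox4i1, Ndufa4l2, Uqcrq, Cox8c, Atp5mpl, Uqcrb, Cox6c, Ndufb9, Ndufb4c, Ndufa2 and Atp5a1. Peaks within 1 kb of either gene end marked a gene. Breadth was tested with limma 3.58.1 in R 4.3.3 (lmFit, eBayes with trend) on log2(breadth + 200 bp), each list centred on its median, with a mean for each of the 4 groups and 4 residual degrees of freedom among lists, and adjusted by Benjamini-Hochberg over all genes tested. The centring moved list medians by -0.27 to 0.23 on the log2 scale for H3K27ac. The limma step was also run on simulated breadths in which 200 genes were changed. A planted log2 change of 1 was called at 94.5% of them for H3K27ac and 78.5% for H3K9ac. The simulation used only genes marked in all 8 lists and gave each the same spread. It therefore does not show what the reported fit can detect, since that fit includes genes without a peak in some lists. Python 3.11.15, numpy 2.4.6, pandas 2.3.3 and matplotlib 3.10.9 were used for the rest.

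The members, gene lists and tests were chosen with earlier results of these data known. Genes named are the main catalytic subunits of each complex, the isoforms known from other tissues, members marked in the fewest lists, the 5 members at most with the smallest p per contrast, the 3 widest and 3 narrowest constantly marked members, and members that switched between feeding states; Ndufs7, Ndufb3, Ndufb5, Ndufaf8, Cox6c, Atp5l and the members listed with a motif were named after their values were seen. Alternatives were the upper 0.5 of peaks by score, equal numbers of top-scoring peaks, peaks at least 500 bp wide, windows of 2.5 kb and of the gene end itself, other pseudocounts (50 and 1000 bp), centrings and filters, the covered bp inside the window, the list number as a block, and leaving out lists. Counting at promoter table starts was added after seeing the data. The result of 1 member and of 1 marker gene is not reported here.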

Additional observations from a re-analysis of the deposited data

How the results depend on the processing

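The reads behind each list are unknown, so a missing peak cannot be told apart from a shallow list or a strict cutoff. Each group has 2 lists, and gene ends stand in for starts. Over the alternatives that kept all lists, 203 of 250 comparisons with a count or share of members stayed the same, 36 moved and 11 changed direction. The 250 include counts of members called in breadth, which were 0 in every one of these settings. All that moved or changed direction were therefore counts or shares of marked members. The same meant within the spread for shares and Fast minus Fed, and within a fixed ratio for other counts. Of 138 single-gene breadth differences, 136 kept their direction without a call. Below, Fast minus Fed is in members marked, and switches are members in both lists of one feeding state and none of the other, summed over tetracycline states. Where values moved, the cause was not tested.

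With the upper 0.5 of peaks by score, the mean share marked was 74.7% for H3K27ac and 76.6% for H3K9ac. H3K27ac then marked 40 members in all 8 lists and 10 in none, and H3K9ac 7 in none. Fast minus Fed without tetracycline, with it and averaged was -1.5, -4.5 and -3.0 for H3K27ac and -0.5, -8.5 and -4.5 for H3K9ac. Switches to Fast were 0 for both marks, and switches to Fed were 3 for H3K27ac. With equal numbers of top-scoring peaks the shares were 81.9% and 74.5%, and H3K9ac marked 31 members in all 8 lists and 10 in none. Fast minus Fed was -6.5 without tetracycline and -4.75 averaged for H3K27ac. For H3K9ac it was -13.5, -17.5 and -15.5. Switches to Fast were 0 for both marks, and switches to Fed were 3 and 8. The H3K9ac breadth difference of Cox4i1 was -0.029 there.

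With peaks of at least 500 bp, H3K9ac marked 5 members in no list, Fast minus Fed without tetracycline was -0.5 and switches to Fast were 0. With a window of 2.5 kb, H3K9ac marked 1 member in no list, Fast minus Fed was 1.5 with tetracycline and 1.5 averaged, and the H3K27ac breadth difference of Ndufb6 with tetracycline was -0.044. With a peak over the gene end itself, 10 members had no H3K27ac and 9 no H3K9ac, the H3K9ac share was 79.2%, Fast minus Fed for H3K9ac was -3.0, -8.0 and -5.5, and H3K9ac switches to Fast were 0. At promoter table starts (78 members, chosen after seeing the data) the shares were 91.0% and 89.1%, members in no list 3 and 1, H3K9ac Fast minus Fed without tetracycline was -1.0, and H3K9ac switches were 1 in each direction.

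Leaving out lists moved H3K27ac Fast minus Fed over -0.5 to 3.5 without tetracycline, -5.0 to 5.0 with it and -2.0 to 3.5 averaged. For H3K9ac the ranges were -2.0 to 7.0, -8.0 to -2.0 and -5.0 to 2.5. Switches to Fast ranged over 1 to 15 for H3K27ac and 3 to 19 for H3K9ac, and switches to Fed over 0 to 8 and 2 to 18, since 1 list then stood for a group. Members with no H3K9ac ranged over 3 to 8. Members called in breadth ranged over 0 to 1 for H3K27ac (fasting with tetracycline, fasting averaged, tetracycline in Fast, interaction). For H3K9ac they ranged over 0 to 6 (fasting with tetracycline, tetracycline in Fast), 0 to 2 (fasting averaged), 0 to 1 (tetracycline averaged) and 0 to 4 (interaction).

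The list number was tried as a replicate block, although it is given by no label. Deviations of same-numbered lists correlated at -0.01 to 0.17 for H3K27ac and 0.02 to 0.08 for H3K9ac over 6 pairs of groups each. Only 0.108 and 0.165, both for H3K27ac, were above 0.1. These correlations are taken after centring and do not see a difference shared by all genes, such as the narrower peaks of list 1 in all 8 groups. With the block, 0 members were called by limma in any contrast, and the 8 genes called over all genes in the H3K9ac contrasts Fast minus Fed with tetracycline and tetracycline in Fast became 0 each. The block cannot change the differences themselves, such as -2.42 for H3K9ac at Uqcrq, since each group holds 1 list of each number. Other centrings, pseudocounts and filters also called 0 members.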
